A study of Mus musculus with 2 samples.

Results

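The genes described here are 82 mouse histone genes, followed as sources of testis small RNAs. They are the protein-coding genes of the GENCODE M21 annotation whose symbols begin with Hist1h, Hist2h, Hist3h, Hist4h, H2af, H3f or H1f, and the rule takes them by symbol from 21951 protein-coding genes. By symbol, 67 were clustered genes (beginning with Hist) and 15 were variant genes, and by class 10 encode H1, 27 H2A, 18 H2B, 14 H3 and 13 H4. Chromosome 13 holds 55 of the 82 and chromosome 3 holds 11. Small RNAs of 15 to 40 nt had been purified from testes at 11 days after birth (11 dpp), with 1 Tdrkh-/- and 1 Tdrkh+/- library, each from 5 pooled pairs of testes on a mixed C57Bl6/129 background. The Tdrkh-/- animals lack exons 2 to 4 of Tdrkh, which include the start codon; the allele was made with an EIIa-Cre transgene that was then bred out, and the controls carry 1 copy of it. The design text tells of 2 knockout lines from separate founders, and the labels do not say which line gave the library. Each genotype had 1 library, so differences have no replicate check and no test was run, and every interval covers counting error only.

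Histone proteins package DNA. Most are encoded by clustered genes that are transcribed as DNA is copied, and whose mRNAs end not in a poly(A) tail but in a conserved stem-loop that is bound by SLBP and cut by a complex with the U7 snRNP. Variant histones come from single genes, most of them with polyadenylated mRNAs. In fetal and prepubertal testis germ cells, PIWI proteins carry piRNAs, which derive from transposons, from dedicated loci and from many ordinary mRNAs. Their precursors are cut so that the 5′ end is usually a U, and the 3′ end is then trimmed to a mature length. TDRKH, a protein of the mitochondrial surface with Tudor and KH domains, is known as a partner of PIWI proteins in that last step.

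The libraries held 60973266 reads (Tdrkh-/-) and 43172204 reads (Tdrkh+/-), of 12118721 and 11808018 distinct sequences. The excised exons of Tdrkh, on chromosome 3 from 94422802 to 94424690, gave 0 sense reads in Tdrkh-/- against 17 in Tdrkh+/-, while its other exons gave 1137 and 1184. Reads of 24 to 30 nt, the size of mature piRNAs, and of 31 to 37 nt were counted when the whole sequence matched a histone transcript exactly in sense, in either library (with sequences found in both libraries only, the family log2 ratios given below were -1.98 and 0.91). A level is the number of such reads per 1000 microRNA reads of the library, and a log2 ratio compares Tdrkh-/- with Tdrkh+/- on that scale.

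The sequences below are shown because they are the most read forms at 5′ ends that carry the results. They are written 5′ to 3′ as listed by the sequencer, with T for U. Where 2 forms share a 5′ end, capitals mark the bases by which the longer one extends the shorter. Codons are counted from the start codon as 1, and positions are those of GRCm38. The H3 pair starts at codon 55 and is placed on Hist1h3a, chr13:23762158-23762191 on the minus strand for the longer form. The second H3 sequence starts at codon 79 of Hist1h3a, chr13:23762093-23762119. The H4 pair starts at codon 99 of Hist1h4m and runs over the stop codon, chr13:21812078-21812106 on the plus strand. The H1 pair starts in codon 146 of Hist1h1a, chr13:23764154-23764189 on the plus strand. The first H2B pair starts at codon 57 of Hist1h2bb, chr13:23746963-23746994 on the plus strand, and the Hist1h2ba sequence starts in codon 68, chr13:23933926-23933954 on the minus strand. The Hist4h4 pair begins 4 bases before the start codon, chr6:136804349-136804383 on the minus strand.
H3 codon 55, most read in Tdrkh+/-: taccagaagtcgaccgagctgctgatc
H3 codon 55, most read in Tdrkh-/-: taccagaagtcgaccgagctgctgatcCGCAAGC
H3 codon 79, most read in Tdrkh+/-: ttcaagaccgacctgcgcttccagagc
H4 codon 99, most read in Tdrkh+/-: tacggattcggcggctaattatgctc
H4 codon 99, most read in Tdrkh-/-: tacggattcggcggctaattatgctcACC
Hist1h1a codon 146, most read in Tdrkh+/-: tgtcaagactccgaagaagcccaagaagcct
Hist1h1a codon 146, most read in Tdrkh-/-: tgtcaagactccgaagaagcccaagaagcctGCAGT
H2B codon 57, most read in Tdrkh+/-: tccaaggccatgggcatcatgaactcgttc
H2B codon 57, most read in Tdrkh-/-: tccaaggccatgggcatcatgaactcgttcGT
Hist1h2ba codon 68, most read in both: tgacagacatcttcgagcgcatcgcgagc
Hist4h4 start codon, most read in Tdrkh+/-: taatatgtcaggacgaggaaaaggcggc
Hist4h4 start codon, most read in Tdrkh-/-: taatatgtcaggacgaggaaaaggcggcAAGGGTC

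Histone mRNAs gave fewer piRNA-size reads and more long reads in Tdrkh-/- than in Tdrkh+/-. At 24 to 30 nt there were 20038 reads in Tdrkh-/- and 82434 in Tdrkh+/-, or 8.07 and 34.9 per 1000 microRNA reads, a level 4.33-fold lower in Tdrkh-/- (log2 ratio -2.11, interval -2.14 to -2.09). These sums leave out sequences that also match structural RNA or microRNA genes in sense, 22311 and 3026 short reads, and with them, a setting chosen after the data were seen, the log2 ratio was -1.09. In whole testes, fewer cells that make such RNAs and fewer RNAs per cell cannot be told apart. At 31 to 37 nt there were 38472 and 20642 reads, or 15.5 and 8.75 per 1000, a level 1.77-fold higher (log2 ratio 0.82, interval 0.80 to 0.85). The gain in long reads was smaller than the loss of short ones, and both windows together had a log2 ratio of -0.89. Long reads outnumbered short ones 1.92 to 1 in Tdrkh-/- and stood at 0.250 to 1 in Tdrkh+/-, a 7.67-fold change of that proportion, against 10.3-fold over all reads sense to protein-coding genes. All protein-coding genes together had log2 ratios of -0.95 and 2.42, so that the histone share of protein-coding sense reads was lower in Tdrkh-/- at both lengths: 0.334% against 0.748% at 24 to 30 nt and 0.287% against 0.869% at 31 to 37 nt.

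Read by single length, the most read length moved from 27 nt in Tdrkh+/- (21984 reads) to 34 nt in Tdrkh-/- (9976 reads). Over 24 to 37 nt the mean length was 28.6 nt in Tdrkh+/- against 31.6 nt in Tdrkh-/-. The log2 ratio was lowest at 26 nt (-3.20), passed zero between 31 nt (-0.31) and 32 nt (0.13), and was highest at 34 nt (1.94).

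**Figure D1:**
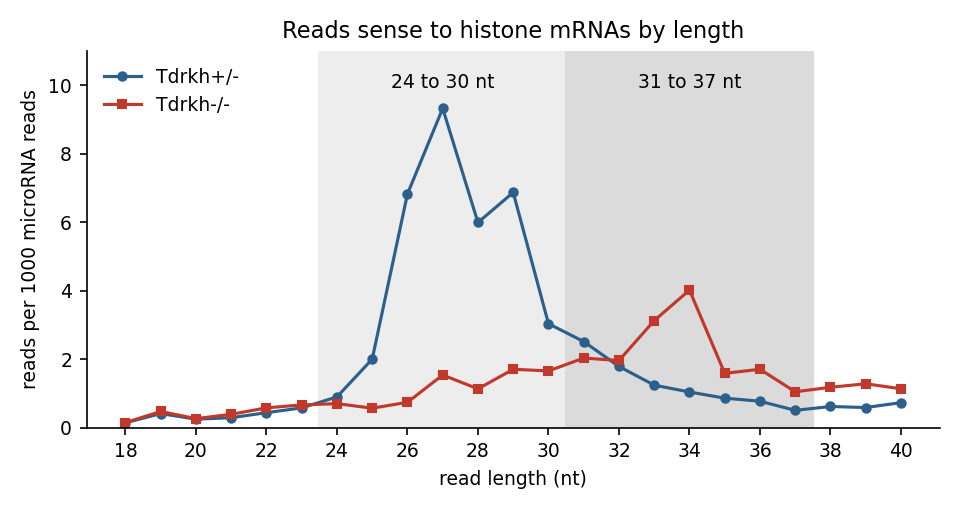
Reads sense to histone mRNAs (per 1000 microRNA reads, vertical axis) by read length (nt, horizontal axis) in the Tdrkh+/- library (circles) and the Tdrkh-/- library (squares), 1 library each. The Tdrkh+/- curve peaks at 27 nt with a second rise at 29 nt, the Tdrkh-/- curve peaks at 34 nt, and the curves cross between 31 and 32 nt.

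Histone piRNA-size reads lay mostly in the coding sequence, unlike those of other genes. Each read was placed by its middle base on the transcript of each gene with the longest coding sequence. In Tdrkh+/-, 83.8% of histone reads of 24 to 30 nt (interval 83.6% to 84.1%) lay in coding sequence, 9.77% in 3′ UTRs and 6.42% in 5′ UTRs, while coding sequence made up 42.5% of the bases of these transcripts. Over 21784 other protein-coding genes with an annotated coding sequence the coding share was 28.9% in the same library, for 52.6% of their bases. The 3′ UTR share of those genes was 68.6%, for 40.2% of bases. The annotation gives 14 histone genes no UTR on either side, so that reads from their untranslated ends could not be placed.

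The loss at 24 to 30 nt was larger in coding sequence than in 3′ UTRs. The coding log2 ratio was -2.32 (-2.35 to -2.30), that of 5′ UTRs -2.08 and that of 3′ UTRs -1.03 (-1.08 to -0.97). The coding share of histone reads was accordingly lower in Tdrkh-/-, at 72.6%, and the 3′ UTR share higher, at 20.8%. In other genes the coding share was also lower in Tdrkh-/- than in Tdrkh+/-, at 25.04% against 28.9%. Among long reads the coding share was alike in both libraries, at 81.2% in Tdrkh-/- and 81.4% in Tdrkh+/-, and the coding and 3′ UTR log2 ratios were 0.82 and 0.92. When every distinct sequence counted once, the coding share at 24 to 30 nt was 74.9% in Tdrkh-/- and 74.8% in Tdrkh+/-.

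**Figure D2:**
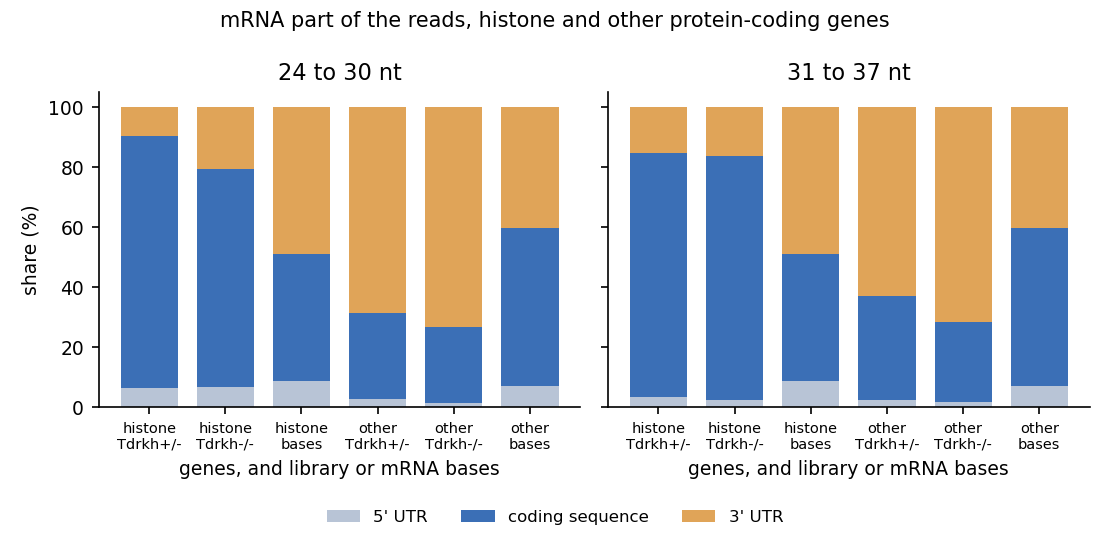
Share (%, vertical axis) of reads in the 5′ UTR, coding sequence and 3′ UTR for the 82 histone genes and for other protein-coding genes, by library, beside the share of transcript bases in each part, at 24 to 30 nt (left) and 31 to 37 nt (right). The coding bar of histone genes reaches 83.8% of Tdrkh+/- reads of 24 to 30 nt, against 28.9% in other genes.

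The 3′ stem-loop was looked for after the stop codon, on the transcript strand, as 6 paired bases that begin with GG and enclose a 4-base loop that begins with TTT. It was found in 43 of 67 clustered genes (43 of the 51 with at least 40 annotated bases after the stop codon), in 1 of 15 variant genes (H2afx, chr9:44335240-44335255) and in 60 of all 21866 protein-coding genes with such a transcript, 0.274%. It began at a median of 31.5 bases (21 to 58) after the coding sequence. The most common form was held by 25 genes and is shown from Hist1h3a, chr13:23761890-23761905 on the minus strand; the form of Hist4h4 is on chr6:136803998-136804013 on the minus strand, and capitals mark the loop.
Hist1h3a stem-loop: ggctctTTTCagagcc
Hist4h4 stem-loop: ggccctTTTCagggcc

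Reads that overlapped the stem-loop changed less than those of the coding sequence. In genes with the hairpin, 565.5 short reads lay over it in Tdrkh-/- and 814 in Tdrkh+/- (reads are divided where a sequence fits several genes), a log2 ratio of -0.60 (-0.76 to -0.44). The bases between stop codon and hairpin had a log2 ratio of -0.47, the coding sequence and 5′ UTR one of -2.20, and bases beyond the hairpin one of -1.85. Long reads over the hairpin numbered 1832.5 and 1118, a log2 ratio of 0.64. The hairpin made up 1.45% of the bases of these genes. A read counts here if it overlaps any hairpin base, so the read shares cannot be set directly against that share of bases. Reads that overlapped it were 3.94% of short reads in Tdrkh-/- and 1.43% in Tdrkh+/-, and 7.24% and 9.86% of long reads. Some annotated transcripts run past the hairpin, and 50.4% of the bases lay beyond it.

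Reads were concentrated at some 5′ ends. An end was taken as the first 24 nt, and 4123 ends were found, of which 1413 occurred in both libraries. The 20 most read ends of each library held 41.8% (Tdrkh-/-) and 43.5% (Tdrkh+/-) of its reads of 24 to 37 nt, and 11 ends were among the 20 of both. Of the 113 ends read 50 times or more in both libraries, 103 (91.2%) had a greater mean length in Tdrkh-/-, with a median difference of 1.77 nt. No such share is given for the ends of other genes. Of 4122 host genes compared below, 98.5% had a higher proportion of long to short reads in Tdrkh-/-, so longer reads are not particular to histone genes.

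The end at codon 55 of H3, shared by 12 H3 genes and 1 gene outside the 82, was the most read of all. It had 99 short and 8452 long reads in Tdrkh-/- against 1064 short and 910 long reads in Tdrkh+/-. Its 27-nt form had 14 reads in Tdrkh-/- and 733 in Tdrkh+/-, and its 34-nt form had 6269 and 679. Tdrkh+/- reads thus peaked at 27 and 34 nt and Tdrkh-/- reads at 34 nt, with another 1499 Tdrkh-/- reads at 33 nt. Of all H3 reads of 24 to 37 nt the end held 54.7% in the Tdrkh-/- library and 8.53% in the other.

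At the same codon of H3f3b, a replacement H3.3 gene, the 27-nt sequence differs from that of the clustered genes at 3 bases, marked by capitals (chr11:116023718-116023744, minus strand). That end had 15 short and 7 long reads in Tdrkh-/-, and 308 short and 2 long reads in Tdrkh+/-. The long form that led the clustered H3 genes was thus nearly absent from this copy in both libraries.
H3f3b codon 55: taccagaaAtcgacTgagctgctCatc

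Codon 79 of H3 showed another pattern, with almost no long reads in either library. This end lay in 9 H3 genes and 1 gene outside the 82. It had 469 short and 2 long reads in Tdrkh-/- and 8735 short and 3 long reads in Tdrkh+/-, a log2 ratio of -4.29 at 24 to 30 nt. It was the most read end of the Tdrkh+/- library, with 8.48% of its histone reads. Its 27-nt form had 78 and 4454 reads. The 2 most read H3 ends therefore differed in what remained in Tdrkh-/-: many long reads at codon 55 and few reads of any length at codon 79.

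At the H4 end that runs over the stop codon of Hist1h4m and Hist1h4n, the change took place within the piRNA-size window. The 26-nt form had 133 reads in Tdrkh-/- and 6153 in Tdrkh+/-, and the 29-nt form had 599 and 335. Its reads averaged 28.5 nt in Tdrkh-/- against 26.2 nt in Tdrkh+/-, while only 33 and 5 reads were long. Ends 1 and 2 bases upstream ended at the same 2 places: their 27-nt and 28-nt forms led in Tdrkh+/-, with 1442 and 1107 reads, and their 30-nt and 31-nt forms led in Tdrkh-/-, with 578 and 401 reads. Hist1h4c and Hist1h4f differ from this sequence just before the stop codon and again after it. At codon 99 Hist1h4f had 9 short and 10 long reads in Tdrkh-/- and 163 and 28 in Tdrkh+/-.

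**Figure D3:**
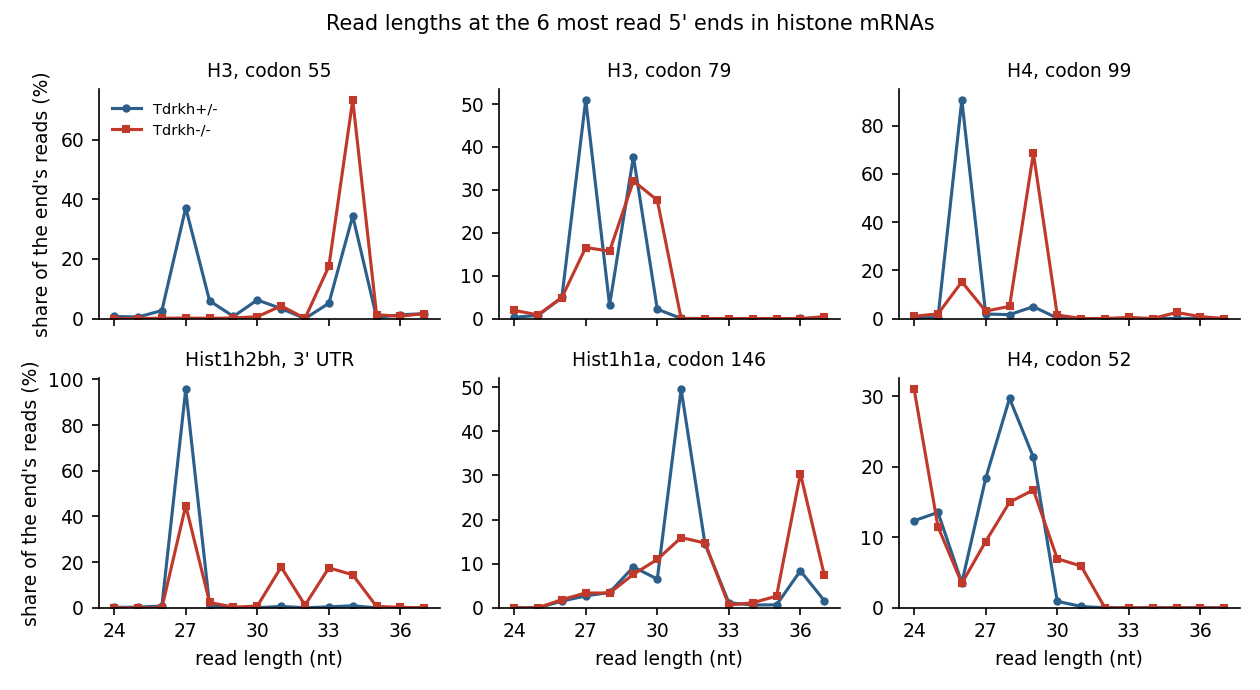
Share of the reads of each 5′ end (%, vertical axis) by read length (nt, horizontal axis) at the 6 most read ends of histone mRNAs, for Tdrkh+/- (circles) and Tdrkh-/- (squares). At H3 codon 55 the Tdrkh-/- reads gather at 34 nt and the Tdrkh+/- reads at 27 and 34 nt, and at H4 codon 99 the peak lies at 26 nt in Tdrkh+/- and 29 nt in Tdrkh-/-.

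All 5 classes had a lower level of piRNA-size reads and a higher level of long reads in Tdrkh-/-, by different amounts. The log2 ratios at 24 to 30 nt were -2.69 for H3, -2.49 for H4, -2.20 for H2B, -1.73 for H1 and -0.997 for H2A. At 31 to 37 nt they were 1.61 for H3, 0.84 for H4, 0.83 for H2B, 0.61 for H2A and 0.09 for H1. The interval of no class overlapped that of another at 24 to 30 nt, and the intervals of H2B and H4 overlapped at 31 to 37 nt. No sequence fell in more than 1 class. Some sequences also match genes outside the 82, a few of which are themselves named as histones, such as Hist1h2aj and Hist3h2bb-ps. Without these sequences the short ratios were -1.43 for H3, -2.48 for H4, -2.32 for H2B, -1.73 for H1 and -1.26 for H2A. H3 then no longer had the lowest, and the long ratio of H3 was 0.90. With each distinct sequence counted once, the short ratios were -1.21 for H1, H2B and H3, -1.19 for H2A and -1.09 for H4. Their intervals all overlapped, so the order of the classes at 24 to 30 nt was seen in read counts only. On that count H2A had -0.10 at 31 to 37 nt. The H1 value at 31 to 37 nt was -0.33 when scaled per read listed and -0.48 per transcript-matching read. Those scalings move every ratio by -0.42 and -0.57.

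The place of H3 at the top for long reads rested on codon 55. Without that end, a setting chosen after the data were seen, the H3 log2 ratio was 0.37 (0.30 to 0.44) at 31 to 37 nt and -2.66 at 24 to 30 nt. The same was done for the most read end of each class. H1 then had 0.43 in place of 0.09 at 31 to 37 nt, and H2A, H2B and H4 had 0.74, 0.69 and 0.84. The log2 ratio of all histone reads of 31 to 37 nt was 0.53 without codon 55 alone, against 0.82. With each distinct sequence counted once it was 0.08.

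**Figure D4:**
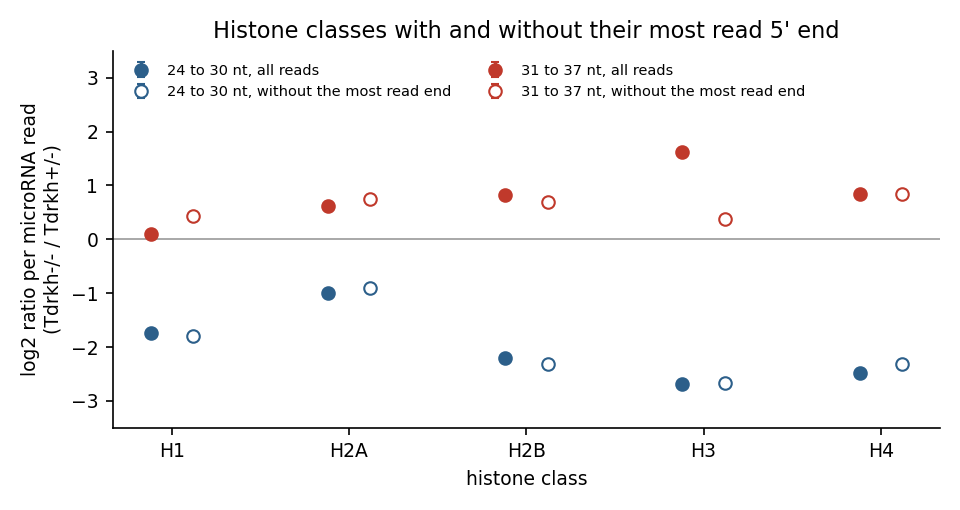
Log2 ratio per microRNA read (Tdrkh-/- over Tdrkh+/-, vertical axis) for the 5 histone classes at 24 to 30 nt and 31 to 37 nt, with all reads (filled) and without the most read 5′ end of the class (open). Bars are 95% counting intervals, mostly smaller than the symbols. H3 at 31 to 37 nt moves from 1.61 to 0.37, and the other points move by less.

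Single genes were compared with reads divided equally among all genes that a sequence matches. With at least 500 reads of 24 to 30 nt over both libraries, 47 of the 82 histone genes were compared (43 clustered, 4 variant), of 4122 protein-coding and long noncoding hosts. Just inside this minimum stood Hist1h2bp with 504 and Hist1h2bh with 531 reads, and just outside Hist1h1e with 399 and Hist2h3c2 with 397. Another 31 had some reads, and H1fnt, H2afb1, H2afb2 and H2afb3 had none. Since the minimum counts both libraries together and Tdrkh+/- has more short reads, the genes that passed it are no sample of all 82.

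At 24 to 30 nt, 42 of the 47 were at least 2-fold lower in Tdrkh-/-, 89.4% against 72% of all hosts, and 0 were at least 2-fold higher, against 6.19%. At 31 to 37 nt, 22 were at least 2-fold higher, 46.8% against 77.8% of all hosts, and 1 (Hist1h2ba) was at least 2-fold lower, against 1.16%. Both marks were passed by 20 genes, 42.6% against 53.2%. Without regard to size, 41 were lower at the short and higher at the long window (87.2% against 84.9%), 5 (Hist1h1a, Hist1h2aa, Hist1h2ba, Hist1h4j and Hist1h4k) were lower at both (10.6% against 4.66%), and the proportion of long to short reads was higher in Tdrkh-/- for all 47 (against 98.5%). The medians were -2.52 and 0.90 for histone genes and -1.56 and 1.74 for all hosts. Of the 22 higher at 31 to 37 nt, 10 were H3 genes, all but H3f3a clustered copies that share sequences, and without the codon 55 end the count was 13. With each distinct sequence counted once it was 0, and per transcript-matching read it was 9. The 77.8% of all hosts belongs to the main setting, and no share of all hosts is given for these others.

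Ribosomal protein genes, another family of short and abundant mRNAs, had similar medians. Of 52 compared, 47 were at least 2-fold lower at 24 to 30 nt (90.4% against 72% of all hosts). At 31 to 37 nt 17 were at least 2-fold higher (32.7% against 77.8%), and the medians were -2.63 and 0.60.

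**Figure D5:**
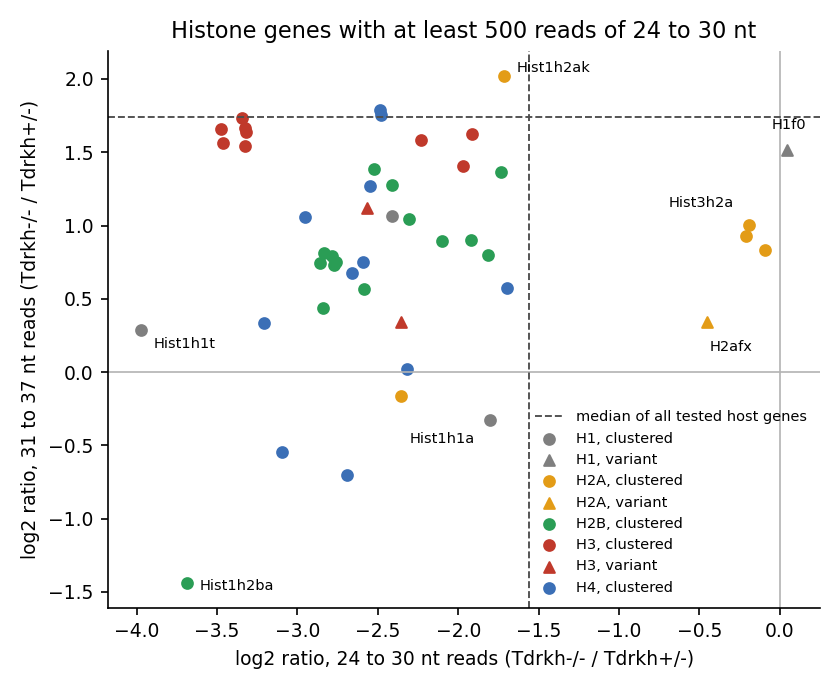
Log2 ratios (Tdrkh-/- over Tdrkh+/-, per microRNA read) of the 47 histone genes that reached the read minimum, at 24 to 30 nt (horizontal axis) and 31 to 37 nt (vertical axis). Colour gives the class, circles are clustered and triangles variant genes, and dashed lines are the medians of all 4122 hosts. Most points lie left of the vertical dashed line and below the horizontal one, with H1f0 and 4 H2A genes near 0 at 24 to 30 nt and Hist1h2ba lowest on the vertical axis.

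H3 is a core histone of the nucleosome's central tetramer. The median log2 ratio of the 11 compared was -3.32 at 24 to 30 nt, where all passed the 2-fold mark, against 72% of all hosts. At 31 to 37 nt 10 were at least 2-fold higher, 90.9% against 77.8%. Hist1h3e had 151 reads in Tdrkh-/- and 1455 in Tdrkh+/- at 24 to 30 nt, and 829 and 237 at 31 to 37 nt (log2 ratios -3.34 and 1.73). Hist1h3d (-3.48 and 1.66), Hist1h3f (-3.46 and 1.56) and Hist1h3g (-3.33 and 1.66) stood close by. Hist1h3a had 545 and 2027 short reads and 1579 and 566 long reads (-1.97 and 1.41), and Hist1h3c had -1.91 and 1.63. These are largely the same sequences counted in each copy, since a median of 4.18% of an H3 gene's reads of 24 to 37 nt matched that gene alone (42.2% in Hist1h3a); the unshared shares below are over the same lengths. Without sequences shared with genes outside the 82, Hist1h3a had -0.87 and Hist1h3c -0.96 at 24 to 30 nt, short of the 2-fold mark. Hist1h3d then had -0.25 at 31 to 37 nt. On sequences of a single gene Hist1h3a and Hist1h3c had -0.54 and -0.47 at 24 to 30 nt.

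The H4 genes, whose product pairs with H3, were also lower at 24 to 30 nt. There 11 of 11 passed the 2-fold mark, against 72% of all hosts, while 4 passed it upward at 31 to 37 nt (36.4% against 77.8%). Hist1h4m and Hist1h4n, 2 near-identical copies, had 1224 and 1235 short reads in Tdrkh-/- and 6531 and 6562 in Tdrkh+/-. Their long reads were 811 and 817 in Tdrkh-/- and 223 and 230 in Tdrkh+/-, with log2 ratios of -2.49 and 1.79 for Hist1h4m and -2.48 and 1.76 for Hist1h4n. Hist4h4, a single gene on chromosome 6 with 98.4% of its reads unshared, had 690 and 3841 short reads and 1885 and 744 long reads (-2.55 and 1.27). At its end over the start codon the 28-nt form had 19 and 262 reads and the 35-nt form 585 and 255. Hist1h4c had -1.70 and 0.57. Hist1h4j and Hist1h4k were lower at both lengths, with -3.09 and -0.54, and -2.69 and -0.70. For Hist1h4k 4.39% of reads were unshared, and on those alone its short ratio was 0.73, from only 14 and 8 reads.

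All 15 H2B genes compared were at least 2-fold lower at 24 to 30 nt, against 72% of all hosts. At 31 to 37 nt 4 were at least 2-fold higher, 26.7% against 77.8%. A median of 21.4% of an H2B gene's reads matched that gene alone, so many sequences are counted in several copies. H2B is a core histone that dimerises with H2A. The end at codon 57, in 15 members and 1 other gene, had 154 short and 675 long reads in Tdrkh-/- and 1403 and 214 in Tdrkh+/-. Hist1h2bb had the most reads, with 1329 and 4775 short and 960 and 488 long ones (-1.92 and 0.90), and 89.9% of them were its own. Many lay at its start codon, where a 27-nt sequence that begins 13 bases before the start codon, chr13:23746782-23746808, had 255 and 1489 reads.
Hist1h2bb start codon, most read in both: tcttttgaacagaatgccagagccttc

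Hist1h2ba, which encodes the testis H2B known as TH2B, departed from the other H2B genes in its long reads. Its short reads numbered 295 in Tdrkh-/- and 3617 in Tdrkh+/- (log2 ratio -3.69, interval -3.87 to -3.52). Its long reads were 352 and 904 (-1.44, -1.62 to -1.26), so that both lengths were lower in Tdrkh-/-, and 95.4% of its reads were unshared. The 29-nt sequence at codon 68 carried 69 and 1699 reads, and that end had 1 and 6 long reads.

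Counted by reads, H2A had the smallest change of the classes at 24 to 30 nt. Of the 18 H2A genes with reads below the minimum, 15 were lower by 2-fold or more. Many of these are copies that share sequences, some have few reads, and no share of all hosts below the minimum is given. Of 6 compared, 2 passed the 2-fold mark downward, and 2 passed it upward at 31 to 37 nt, with medians of -0.33 and 0.88. These are 33.3% each, against 72% and 77.8% of all hosts. Hist1h2aa, the testis H2A gene known as TH2A that lies beside Hist1h2ba, had 308 and 1501 short reads and 218 and 232 long reads (-2.36 and -0.16). Hist1h2ak had 186 and 580 short and 435 and 102 long reads (-1.71 and 2.02), the highest value at 31 to 37 nt of the 47. Hist3h2a had 1013 and 1097 short and 732 and 347 long reads (-0.19 and 1.005), but 1.03% of its reads were its own, because its transcript overlaps that of Trim17. Hist1h2ao (-0.09 and 0.83) and Hist1h2ap (-0.21 and 0.93) shared nearly all sequences, with 0% and 14.4% unshared. Without sequences found in genes outside the 82 they had 0.24 and 0.05 at 24 to 30 nt.

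Among the linker histone genes, H1, the 4 compared ranged from -3.97 to 0.05 at 24 to 30 nt. Hist1h1a had the most reads of any histone gene, 1517 and 5029 short and 3854 and 4587 long (-1.80 and -0.32), and 99.7% of them were its own. Of the 47, Hist1h1a had the most long reads for each short one in Tdrkh+/-, 0.912, though Hist1h1e, below the minimum, had more. The Hist1h1a end in codon 146 was already 31 nt long in Tdrkh+/-, with 180 and 1240 reads. Its 36-nt form had 344 and 210. With windows of 26 to 28 nt and 33 to 36 nt the Hist1h1a long ratio was 0.82. Hist1h1d had 692 and 3501 short and 2296 and 1044 long reads (-2.41 and 1.06). Hist1h1t, the testis H1 of meiotic germ cells, had the lowest ratio of the 47 at 24 to 30 nt, with 34 and 508 reads (-3.97, interval -4.52 to -3.47), and 145 and 113 long reads (0.29).

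Variant genes gave 4.39% of the Tdrkh+/- reads of 24 to 30 nt and 7.95% of the Tdrkh-/- ones. They had 1594 and 3621 short reads (log2 ratio -1.26, -1.34 to -1.17), against 18064 and 77526 for clustered genes (-2.18, -2.20 to -2.15). Their long reads were 1514 and 814 (0.82, 0.70 to 0.95), and those of clustered genes 36749 and 19393 (0.85, 0.82 to 0.87), so that the kinds differed at 24 to 30 nt by -0.92 and at 31 to 37 nt by 0.03. Sequences shared by both kinds, 380 and 1287 short and 209 and 435 long reads, stand in neither sum. H1f0 alone gave 743 and 683 of the short variant reads. Without it, a setting chosen after the data were seen, variant genes had 851 and 2938 short reads (-1.86), and the difference at 24 to 30 nt was -0.31. That difference was 0.24 with each distinct sequence counted once. The one at 31 to 37 nt had no stable sign: it was 0.63 with windows of 26 to 28 and 33 to 36 nt, 0.22 without H1f0, -0.28 without the codon 55 end and -0.58 on sequences found in both libraries. The coding share of variant reads was lower, at 60.8% in Tdrkh+/- and 36.97% in Tdrkh-/-, and their 3′ UTR share was 34.3% and 59.1%. Their 3′ UTR reads had a log2 ratio of -0.48 and their coding reads one of -1.98.

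Among the variant genes compared, H3f3a and H3f3b, both genes of the replacement histone H3.3, had 80 and 451 and 115 and 560 short reads (-2.57 and -2.36). Their long ratios were 1.12 and 0.34. H1f0, the H1 variant of cells that have stopped dividing, had 743 and 683 short reads (0.05, -0.10 to 0.20) and 416 and 138 long reads (1.52), so that its short reads did not differ beyond counting error. H2afx, the H2A variant phosphorylated at DNA breaks, had 264 and 343 short and 215 and 161 long reads (-0.45 and 0.34). H1fx and H2afz, below the minimum, had 59 and 229 and 83 and 261 short reads. A repeat sequence within H3f3a that also occurs in structural RNA genes is among the sequences set aside.

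Histone reads had the 5′ U of piRNAs. At 24 to 30 nt 55.7% of Tdrkh-/- reads (54.99% to 56.4%) and 71.8% of Tdrkh+/- reads (71.5% to 72.1%) began with U, and at 31 to 37 nt 70.4% and 68.6% did, while U made up 23.5% of the transcripts' bases and 14.1% of the coding sequence. The short reads of Tdrkh-/- stood lowest, and among classes the gap was widest in H3, with 48.5% against 76.6% in Tdrkh+/-. A at position 10, the mark of piRNAs made by cutting across an opposite-strand piRNA, was found in 33.1% and 27.7% of short and 29.1% and 25.4% of long reads, with A at 24.7% of transcript bases. The base just after the read's 3′ end on the transcript was a U for 45.2% of short reads in Tdrkh-/- and 24.5% in Tdrkh+/-, and for 53.4% and 35.2% of long reads. Among classes, H3 alone went the other way for short reads, at 27.3% in Tdrkh-/- and 29.6% in Tdrkh+/-. With each distinct sequence counted once, 44.4% and 46.9% of short sequences began with U. On that count the base after the 3′ end was a U for 26.7% and 20.2% of short sequences and 31.1% and 24.2% of long ones, smaller gaps than in reads.

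Long reads of both libraries mostly started where short Tdrkh+/- reads start. Of 38455 long Tdrkh-/- reads, 89.8% (89.5% to 90.1%) had the first 24 nt of a 24 to 30 nt sequence of Tdrkh+/-. Moving each start by 1 to 10 nt along the transcript gave a median of 73.5% and at most 82.2%. Over distinct sequences the shares were 69.3%, 47.0% and 54.5%. The shares at shifted starts are thus high as well, and the share at the true start was above each of them. Long Tdrkh+/- reads shared starts with short Tdrkh+/- reads nearly as often, at 86.8% of reads and 65.3% of distinct sequences. No share for other genes is given.

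Sharing among copies bears on every value for a single gene. Of short reads, 42.3% in Tdrkh-/- and 37.9% in Tdrkh+/- matched 1 of the 82 genes and no other gene. Another 28.9% and 30.7% matched several of the 82 alone, and 28.8% and 31.5% also a gene outside the 82. On sequences of a single gene the family log2 ratios were -1.95 and 0.40. Of the 24 to 30 nt reads, 8.52% and 5.73% matched more than 20 genes. Among these were 2 ends in the 3′ UTR of Hist1h2bh, one found in 33 and the other in 51 other genes, with 819 and 34 short reads in Tdrkh-/- and 2238 and 330 in Tdrkh+/-.

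Genes that act on histone mRNAs or proteins were also hosts. Of 29 genes for the 3′ end of histone mRNAs and for histone chaperones, 11 were compared, 8 were at least 2-fold lower at 24 to 30 nt and 8 at least 2-fold higher at 31 to 37 nt, against 72% and 77.8% of all hosts, with medians of -1.50 and 1.23. Lsm11, a subunit of the U7 snRNP, had 2048 and 5514 short and 5502 and 634 long reads (-1.50 and 3.04). Hjurp, the chaperone of the centromeric H3 variant, had 2550 and 13924 short and 4981 and 1971 long reads (-2.52 and 1.26), and Chaf1a, a subunit of the replication-coupled H3 and H4 chaperone, -2.91 and 1.45. Slbp, the stem-loop binding protein, was below the minimum with 114 and 212 short reads. Of 21 genes for histones named outside the rule, none reached the minimum, and Cenpa, the centromeric H3 variant, had 71 and 75 short and 630 and 126 long reads.

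The labelled tissue could be checked only through small RNA hosts. All 8 germ cell markers had reads of 24 to 30 nt, and 5 were compared, with medians of -1.53 and 0.71. Summed short reads were 2139 and 7496 for germ cell markers and 371 and 433 for the 5 Sertoli markers (1 of them at 0). They were 298 and 561 for the 4 Leydig markers and 766 and 353 for the 2 peritubular markers. Star gave 254 and 537 of the Leydig sum, while Cyp17a1 (10 and 2) and Hsd3b1 (34 and 20) were higher in Tdrkh-/- and Insl3 had 0 and 1.5. Of the somatic markers compared, Myh11 of peritubular cells had a log2 ratio of 1.30 at 24 to 30 nt, Clu of Sertoli cells one of -0.22 and Star of Leydig cells one of -1.15 (2.61 at 31 to 37 nt), and their part in the histone results was not tested.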

How the data were processed

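The deposited files, 1 per library, give each distinct sequence with its read count. Per the labels' protocols, RNA of 15 to 40 nt was made into libraries with an Illumina small RNA kit. The submitters' processing notes name Bowtie and mm9; how reads were trimmed or filtered is not given in the sources used here. Listed lengths were 18 to 40 nt. Sequences were matched exactly to GENCODE M21 transcripts (GRCm38), and none were converted from mm9. Sequences also sense to structural RNA or microRNA genes were set aside. The scale was the 2482747 (Tdrkh-/-) and 2359299 (Tdrkh+/-) reads of 18 to 25 nt in microRNA hairpins. For classes and the family each sequence counted once; for genes its reads were divided over all genes matched. Intervals are 95% Wilson (shares) or exact conditional binomial (ratios), and reads are not distinct molecules. Named genes were the 10 most read, the 5 highest and lowest ratios at each length, the 2 most read of each class and kind, and fixed lists of testis histones, of 3′ end and chaperone genes and of other histone-fold genes. Members and lists were chosen with earlier results of these data known. Matching was checked by string search and tested on simulated data. Python 3.11.15, NumPy 2.4.6, pandas 2.3.3, SciPy 1.17.1, Numba 0.67.0 and Matplotlib 3.10.9 were used.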

Additional observations from a re-analysis of the deposited data

Results flagged for a closer look

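Reads outside the lengths and strand compared above were also found on histone mRNAs. Antisense reads of 31 to 37 nt numbered 4922 in Tdrkh-/- and 3289 in Tdrkh+/-, a level 1.42 times that of Tdrkh+/-; those with no sense match and 1 antisense gene were 74 and 20. Sense reads of 18 to 23 nt numbered 6317 and 5039, a ratio of 1.19. Sense reads of 38 to 40 nt numbered 8957 and 4600, a ratio of 1.85, or 1.77 for sequences that match no gene outside the 82.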

How the results depend on the processing

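No paired analysis was possible because each genotype has 1 library and the labels give no shared replicate numbers. Of 854 values recomputed, those on the main results moved by less than counting error in 55 cases, by more in 62, and changed sign in 7; the cause was not tested. The family log2 ratios (24 to 30, then 31 to 37 nt) were -2.54 and 0.40 per read listed and -2.69 and 0.25 per transcript-matching read, with 12 and 9 genes at least 2-fold higher at 31 to 37 nt in place of 22. With each distinct sequence counted once they were -1.19 and 0.075, with 0 such genes. Windows of 26 to 28 and 33 to 36 nt gave -2.69 and 1.41. They were -2.06 and 0.53 without sequences of genes outside the 82, -1.95 and 0.40 on sequences of a single gene (14 genes higher), and -1.98 and 0.91 on sequences in both libraries. Without sequences of more than 20 genes the short ratio was -2.16, and without sequences read once the long one was 0.89. Chosen after seeing the data, leaving out the most read 5′ end gave 0.53 (13 genes higher), leaving out that of each class -2.07 and 0.61, and counting the sequences set aside -1.09 (short). A minimum of 1000 reads left 21 genes compared, 19 at least 2-fold lower at 24 to 30 nt and 15 higher at 31 to 37 nt. For these other settings no share of all hosts is given, so the gene counts cannot be set against a background.

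Clustered minus variant at 24 to 30 nt was 0.24 with distinct sequences, -1.01 without sequences read once, -1.32 without outside genes, -1.27 on single-gene sequences, -1.58 on sequences in both libraries and, added after seeing the data, -0.31 without H1f0. At 31 to 37 nt it was 0.63 in the narrow windows, -0.23 without sequences read once, -0.22 without outside genes, -0.36 on single-gene sequences, -0.58 on sequences in both libraries, 0.22 without H1f0, -0.28 without the most read end and -0.21 without that of each class. The coding share of reads of 24 to 30 nt (Tdrkh-/-, Tdrkh+/-) was 74.9% and 74.8% with distinct sequences, 70.1% and 84.9% in the narrow window, 62.0% and 74.6% on single-gene sequences, 77.8% and 88.0% without sequences of more than 20 genes, 73.4% and 85.4% in both libraries and 71.4% and 78.2% placed by the first base; for Tdrkh+/- it was 84.1% without sequences read once and 85.0% without outside genes. With distinct sequences, 5′ U was 44.4% and 46.9% (short) and 46.2% and 42.2% (long), A at position 10 was 28.03% and 25.4% (short) and 27.1% (long, Tdrkh+/-), and 69.3% of long sequences shared a start. Without outside genes, 5′ U was 57.7% and 73.8% (short) and 66.1% (long, Tdrkh-/-), and A at position 10 was 29.7% and 29.8%, then 33.7% and 23.96%.

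Of the other values 296 moved by less than counting error, 397 by more and 37 changed sign. At 31 to 37 nt unless stated, these were, per read listed, H1 -0.33, Hist1h1t -0.14, H2afx -0.082, H3f3b -0.080 and H1f0 (24 to 30 nt) -0.38. Per transcript-matching read they were H1 -0.48, Hist1h4c -0.0039, Hist1h1t -0.29, H2afx -0.23, H3f3b -0.23 and H1f0 (24 to 30 nt) -0.53. With distinct sequences they were H2A -0.10, Hist1h1a 0.047, Hist1h1t -0.86, Hist3h2a -0.22, Hist1h2ao -0.17, Hist1h2ak -0.060, H3f3b -0.42, and H1f0 -0.20 and (24 to 30 nt) -0.96. Without sequences read once Hist1h2aa was 0.025. In the narrow windows Hist1h1a was 0.82 and H1f0 (short) -0.30. Without outside genes Hist1h3d was -0.25, Hist3h2a -1.30 and, at 24 to 30 nt, Hist1h2ap 0.049 and Hist1h2ao 0.24. On single-gene sequences Hist1h4n was -0.49 (0 and 4 reads), Hist3h2a -1.30 (0 and 7) and Hist1h4k (24 to 30 nt) 0.73 (14 and 8). In both libraries Hist1h2ap was -0.36, Hist1h2ao -0.31, Hist1h2aa 0.99, H3f3a -0.71 and, at 24 to 30 nt, Hist1h2ap 0.075, Hist3h2a 0.45 and Hist1h2ao 0.14.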

Other observations

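Antisense reads of 24 to 30 nt on histone mRNAs numbered 13402 in Tdrkh-/- and 12676 in Tdrkh+/-, a log2 ratio of 0.01 (-0.03 to 0.04); those with no sense match and 1 antisense gene were 126 and 187. Hist2h2bb, below the read minimum and chosen after its values were seen, had 447 long reads in Tdrkh-/- and 27.3 in Tdrkh+/-, a log2 ratio of 3.96 (3.41 to 4.59), and 68.1% of its reads of 24 to 37 nt matched it alone.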
